A study of Mus musculus with 10 samples.

Results

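Galectins are soluble lectins that bind galactose-containing glycans, and Lgals3bp encodes a secreted glycoprotein that binds several of them. The genes described here are 6 of the 27024 named rows of the expression table, 5 galectins (Lgals1, Lgals3, Lgals4, Lgals8 and Lgals9) and Lgals3bp, taken by gene name and not by their values. All 6 had a row, and 5 of the 6 reached the mean level required for the test across genes, the exception being Lgals4.

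RNA was sequenced from bEnd.3, 1 immortalised mouse brain endothelial line of wild-type (WT) genotype. The cells received 5 nM StcE, a bacterial mucinase, which cleaves proteins with densely O-glycosylated mucin domains, or saline, for 16 h. There were 5 saline samples (replicates 1, 2, 3, 4 and 5) and 5 StcE samples (replicates 1, 2, 3, 5 and 6), and 0 samples with an inactive enzyme. The comparison asks how the transcripts of the surface lectin system stood after exposure to StcE. Cleavage itself is not measured by these values. Levels are FPKM, fragments per kilobase of exon scaled to the depth of a sample, and between 21864604 and 33147402 fragments per sample could be recovered from them.

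Galectins are made in the cytosol and leave the cell without a signal peptide. Outside the cell they bind N-acetyllactosamine on N-glycans and extended O-glycans, and they cross-link glycoproteins into lattices that hold receptors at the surface, whereas sialic acid on the terminal galactose blocks many of them. Inside the cell, some of them recognise glycans exposed on ruptured endosomes and lysosomes and recruit autophagy proteins. Mucins are known ligands of several galectins, and endothelial galectins take part in adhesion, angiogenesis and the binding of leukocytes.

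The labelled cell type was checked first. All 12 endothelial markers were tested, among them the adhesion molecules Cdh5 (509.1 FPKM with saline and 462.7 with StcE, adjusted p = 0.0515) and Pecam1 (301.9 FPKM with saline and 279.2 with StcE), and their summed level was 1901 to 2055 FPKM with saline and 1801 to 1905 with StcE. Of the 12 endothelial markers, 6 were lower and 0 higher after StcE by the test over all genes (limma, Benjamini-Hochberg adjusted p under 0.05), beside 6.41% lower and 5.52% higher among all 11062 tested genes. A log2 fold change below 0 was found for 11 of the 12, beside 50.4% of all tested genes, and their median was -0.12, beside -6.6e-04. The receptor genes Tek, Flt1 and Tie1 fell most among those called, by 16.0%, 15.1% and 11.7% in mean FPKM (limma adjusted p = 0.00857, 0.00776 and 0.00295). The calls of Pecam1 and Erg were kept in 2 of the 10 fits that left out a sample, and that of Esam in 0 of the 10. The part of these markers in the changes of the other genes was not tested. In bulk samples, fewer cells of a type and less RNA per cell cannot be told apart. Lgals3 is also an antigen of macrophages, and the macrophage markers summed to 20.7 to 22.7 FPKM with saline and 19.1 to 22.2 with StcE. Nearly all of that was Cd68, a lysosomal protein (20.1 FPKM), while Ptprc and Cx3cr1 were at 0 in every saline sample and reached at most 1 and 3 fragments in a StcE sample, and Itgam reached at most 2 fragments in a sample. Of the low markers, Mrc1 was at 0.134 to 0.164 FPKM with saline and 0.220 to 0.330 with StcE, groups that did not overlap (exact permutation p = 0.00794, not adjusted for other genes). Lyz2 had a mean of 1.07 FPKM with saline and 0.576 with StcE (exact permutation p = 0.0397, not adjusted), and the part of either marker in the values of the members was not tested. The epithelial marker Epcam was at 0 in every saline sample and at most 0.0208 FPKM in a StcE sample, and the most abundant epithelial and mural markers were Krt19 (1.58 FPKM) and Acta2 (3.14 FPKM).

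The 6 genes spanned a wide range of levels. Lgals1 was the most abundant, followed by Lgals9, then by Lgals8 and Lgals3 at about the same level, then by Lgals3bp, with Lgals4 near the limit of detection. Of the 5 tested members, 1 passed the threshold of that test, which was Lgals9, lower after StcE. Across all 11062 tested genes the share was 11.9%, with 6.41% lower and 5.52% higher, and 0 of the 5 members were higher. The same gene was the only 1 of the 5 whose groups were fully separated, which held for 10.7% of all tested genes. A count of 1 in 5 is near these background shares and is not a result about the galectins as a group.

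**Figure D1:**
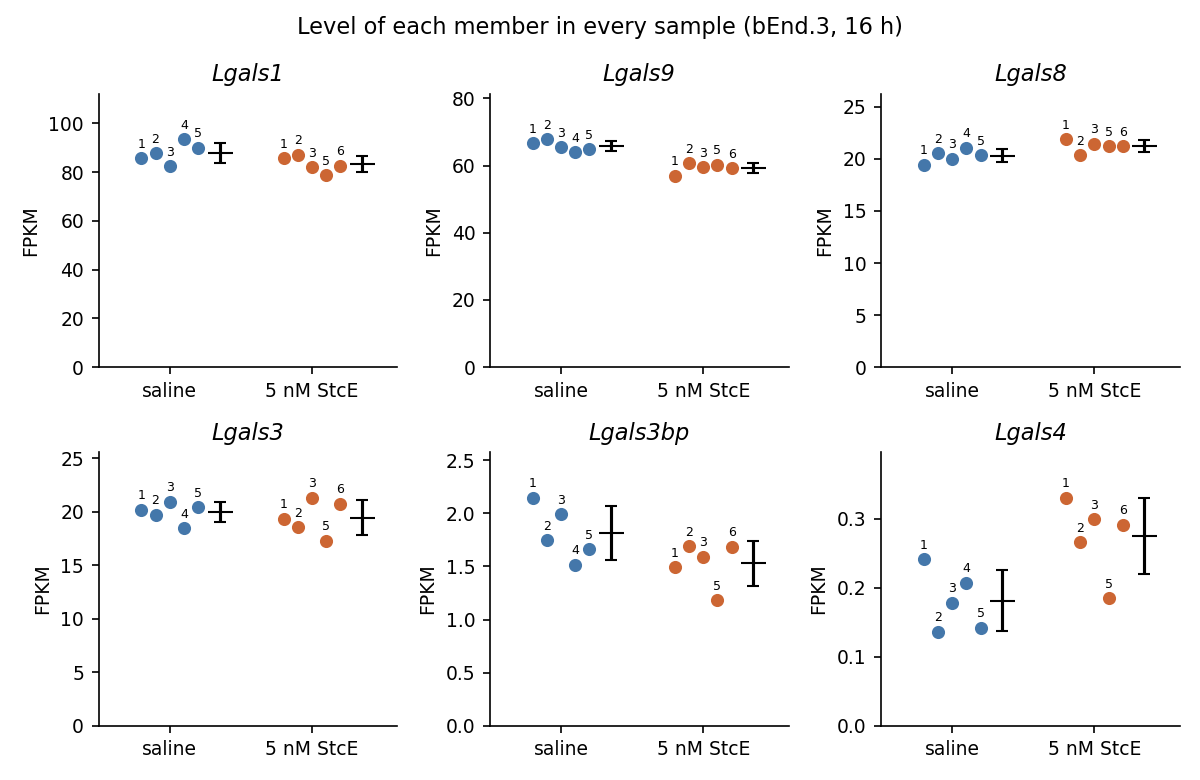
FPKM of the 6 genes in each of the 10 samples, on axes that start at 0. Points are samples, numbered by replicate, and bars are the mean and SD of 5 samples; all 5 StcE points of Lgals9 (57.0 to 60.8) sit under all 5 saline points (64.0 to 67.9), and the groups overlap for the other 5 genes.

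Lgals1 encodes the prototype galectin, a dimer of identical subunits that is abundant in endothelium and binds receptors such as neuropilin 1 and VEGF receptors. The gene lies on chromosome 15, 78926725 to 78930465 (GRCm38, plus strand). Its level with saline was 85.8, 87.7, 82.6, 93.6 and 90.1 FPKM in replicates 1 to 5, and with StcE it was 85.9, 87.2, 82.0, 78.8 and 82.7 FPKM in replicates 1, 2, 3, 5 and 6. The highest values were those of saline replicates 4 and 5 and the lowest was that of StcE replicate 5, but StcE replicates 1, 2 and 6 lay inside the saline range. The means were 88.0 ± 4.18 and 83.3 ± 3.34 FPKM (SD, n = 5 each). The log2 fold change, taken here and for the other genes on log2(FPKM + 1), was -0.08 (limma, 95% interval -0.16 to 0.0034, adjusted p = 0.199; exact two-sided permutation p = 0.0952). A fall of Lgals1 was thus not detected, and the interval reached from -10.3% to 0.236% on the scale of FPKM + 1. On that scale the change of a gene with a low FPKM is understated, which matters little at this level.

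Lgals3 encodes the chimera galectin, whose collagen-like tail lets it form pentamers and which is the galectin best known for binding mucins. It lies on chromosome 14, 47367751 to 47386160 (plus strand). With saline it was at 20.2, 19.7, 20.9, 18.4 and 20.4 FPKM in replicates 1 to 5. With StcE it was at 19.3, 18.5, 21.3, 17.3 and 20.7 FPKM in replicates 1, 2, 3, 5 and 6. Both the highest and the lowest of the 10 values belonged to StcE samples, and every saline value lay between them. The mean was 19.9 ± 0.936 FPKM with saline and 19.4 ± 1.64 with StcE (SD, n = 5 each), with a log2 fold change of -0.04 (limma, 95% interval -0.15 to 0.079, adjusted p = 0.699; exact permutation p = 0.571). Without StcE replicate 5 the log2 fold change of Lgals3 was 0.0025, so no direction can be given for this gene. Between 786 and 1373 fragments per sample lay behind these values.

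Lgals9, Lgals8 and Lgals4 encode tandem-repeat galectins, in which a pair of different carbohydrate-binding domains is joined by a linker. Lgals9 is induced by interferon in endothelial cells, and its product binds Havcr2 (TIM-3) on leukocytes and takes part in their adhesion to endothelium. The gene lies on chromosome 11, 78962974 to 78984946 (minus strand). Its level with saline was 66.6, 67.9, 65.4, 64.0 and 64.8 FPKM in replicates 1 to 5. With StcE it was 57.0, 60.8, 59.6, 60.2 and 59.3 FPKM in replicates 1, 2, 3, 5 and 6. The lowest saline sample (replicate 4) stood above the highest StcE sample (replicate 2), and StcE replicate 1 was the lowest of all.

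The mean of Lgals9 fell by 9.70%, from 65.7 ± 1.52 FPKM with saline to 59.4 ± 1.46 with StcE (SD, n = 5 each). Its log2 fold change was -0.14 (limma, standard error 0.0242, 95% interval -0.20 to -0.09, adjusted p = 0.00304). The exact two-sided permutation test gave p = 0.00794, which is as small as 252 arrangements of the samples allow. By its unadjusted p, Lgals9 stood at rank 272 of the 11062 tested genes, and the median size of the log2 change among the 1320 genes past the threshold was 0.17, so that this was a small change measured with little spread. Between 2864 and 4509 fragments of Lgals9 were recovered per sample. The labels do not say that the samples of a group came from separate cultures, so these p-values measure only the spread between these samples.

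**Figure D2:**
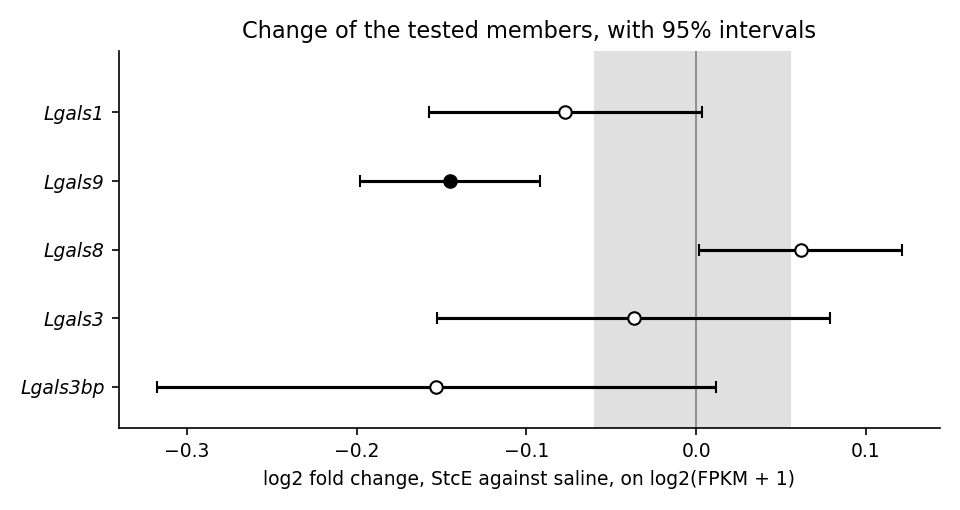
Log2 fold change of the 5 tested genes, StcE against saline on log2(FPKM + 1), with 95% intervals from limma (5 samples a group). The filled point is past the adjusted threshold and open points are not, and the grey band holds the middle 50% of all 11062 tested genes; the interval of Lgals9 (-0.20 to -0.09) lies outside the band, and the interval of Lgals3bp is the widest.

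Since Lgals9 was the member that changed, and interferon is its best known inducer, the bases before its start are shown with matches to interferon-related motifs. Windows of 250 bases before a start were found for 5 of the 6 genes in a RefSeq promoter table (GRCm38.p6), Lgals1 being the other gene, and were searched on both strands for GAAANNGAAA, the core of the interferon-stimulated response element, and for TTCNNNGAA, the core bound by STAT dimers. The stretch shown is chr11:78984947-78985174 on the minus strand, 228 bases that end just before the start annotated by GENCODE and overlap 0 annotated exons. Capitals mark its 1 match to GAAANNGAAA, which reads on the opposite strand and is followed by 23 bases before that start.
Lgals9: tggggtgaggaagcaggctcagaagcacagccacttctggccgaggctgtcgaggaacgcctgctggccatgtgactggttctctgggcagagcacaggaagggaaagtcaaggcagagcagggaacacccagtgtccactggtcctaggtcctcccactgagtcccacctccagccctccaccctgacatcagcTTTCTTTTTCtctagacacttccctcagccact
GAAANNGAAA was in 978 of the 32851 windows of the table (2.98%), and TTCNNNGAA in 2306 (7.02%). The windows of Lgals3, Lgals4, Lgals8 and Lgals3bp held 0 matches to either, and that of Lgals9 held 0 to TTCNNNGAA. These windows precede RefSeq starts, which need not be the ends of the gene spans given here: all 250 bases of the Lgals3 and Lgals8 windows and 133 of the Lgals3bp window lie inside the GENCODE span of the gene. Such a match describes letters and shows no bound factor.

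Lgals8 binds integrins and sialylated glycans, and in the cytosol it marks damaged vesicles. It lies on chromosome 13, 12439415 to 12464944 (minus strand). With saline its level was 19.4, 20.6, 20.03, 21.1 and 20.4 FPKM in replicates 1 to 5. With StcE it was 21.9, 20.3, 21.5, 21.2 and 21.2 FPKM in replicates 1, 2, 3, 5 and 6. Of the StcE samples, 4 were above every saline sample, and StcE replicate 2 lay inside the saline range. The mean was 20.3 ± 0.616 FPKM with saline and 21.2 ± 0.566 with StcE (SD, n = 5 each), and the log2 fold change was 0.06 (limma, 95% interval 0.0017 to 0.12, adjusted p = 0.170; exact permutation p = 0.0476). Lgals8 was therefore not past the threshold over all genes, and its interval allowed at most 8.79% more on the scale of FPKM + 1. The opposite strand of 4.20% of its exon length carries exons of Heatr1, and the libraries were strand-specific, but whether strand was used in counting is not given in the sources used here.

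Since Lgals9 and Lgals8 are both tandem-repeat galectins, their ratio within a sample was taken as a description, which no scaling between samples can move. Lgals9 stood at 3.04 to 3.43 times the FPKM of Lgals8 in the saline samples and at 2.60 to 2.99 times in the StcE samples. The ranges did not overlap, and the means were 3.24 ± 0.145 and 2.80 ± 0.138 (SD, n = 5 each). The ratio of Lgals1 to Lgals9 was 1.26 to 1.46 with saline and 1.31 to 1.51 with StcE, ranges that overlapped. Because Lgals9 was already known to differ, these ratios carry no test.

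**Figure D3:**
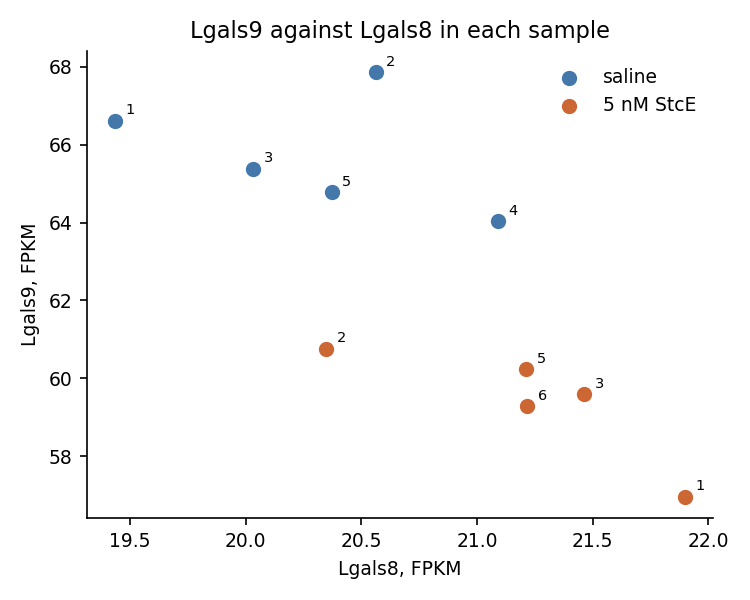
FPKM of Lgals9 (vertical) against FPKM of Lgals8 (horizontal) in the 10 samples, 1 point a sample, numbered by replicate; the axes do not start at 0. The 5 StcE samples lie at 60.8 FPKM of Lgals9 or less and the 5 saline samples at 64.0 or more, while along the horizontal axis the groups overlap.

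Lgals4 is a galectin of gut epithelium and lies on chromosome 7, 28833854 to 28841708 (plus strand). Its FPKM with saline was 0.241, 0.136, 0.178, 0.207 and 0.142 in replicates 1 to 5, and with StcE it was 0.330, 0.266, 0.299, 0.185 and 0.291 in replicates 1, 2, 3, 5 and 6. StcE replicates 1, 2, 3 and 6 were above every saline sample, and StcE replicate 5 was below saline replicates 1 and 4. These levels rested on 17, 8, 11, 11 and 8 fragments with saline and on 18, 17, 24, 15 and 17 with StcE. A count of 8 has an exact 95% Poisson interval of 3.45 to 15.8 and a count of 24 one of 15.4 to 35.7, for counting error only. The means were 0.181 ± 0.0443 and 0.274 ± 0.0550 FPKM (SD, n = 5 each), and the exact two-sided permutation test gave p = 0.0238, with no adjustment for other genes. The log2 fold change of Lgals4 was 0.11, or 0.60 as the log2 ratio of the means with no pseudocount. When genes down to a mean of 0.1 FPKM were tested, the limma adjusted p of Lgals4 was 0.188, so no change of Lgals4 was established over all genes.

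Lgals3bp encodes a secreted scavenger-receptor-domain glycoprotein that binds galectins and integrins, and it is another interferon-inducible gene. It lies on chromosome 11, 118392751 to 118402092 (minus strand). Its level with saline was 2.15, 1.75, 1.99, 1.52 and 1.66 FPKM in replicates 1 to 5, and with StcE it was 1.49, 1.69, 1.59, 1.18 and 1.68 FPKM in replicates 1, 2, 3, 5 and 6. Saline replicates 1 and 3 were the highest and StcE replicate 5 the lowest, and the remaining samples of both groups were interleaved. The means were 1.81 ± 0.255 and 1.53 ± 0.209 FPKM (SD, n = 5 each), a difference of -15.7%. The log2 fold change was -0.15 (limma, standard error 0.0753, 95% interval -0.32 to 0.012, adjusted p = 0.212; exact permutation p = 0.111), while the log2 ratio of the 2 means, with no pseudocount, was -0.25 (Lgals9: -0.15). The standard error was more than 3 times that of Lgals9, and only 99 to 186 fragments lay behind each value.

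Levels per length were then compared between the genes. In each sample Lgals1 was above Lgals9 and Lgals9 above Lgals8 and Lgals3. Lgals8 and Lgals3 did not differ beyond their spread with saline (19.4 to 21.1 against 18.4 to 20.9 FPKM), and with StcE their ranges also overlapped (20.3 to 21.9 against 17.3 to 21.3 FPKM). Within samples, Lgals8 was above Lgals3 in 2 of the 5 saline samples and in all 5 StcE samples, an order that was not tested. Taking the FPKM of the 5 galectins together, Lgals1 made up 43.7% to 47.4% with saline and 44.3% to 46.6% with StcE. The share of Lgals9 was 32.5% to 34.6% and 30.9% to 33.9%, and that of Lgals8 was 10.1% to 10.7% and 10.9% to 11.9%. The sum of the 5 was 189.1 to 197.4 FPKM with saline and 177.7 to 187.1 with StcE, ranges that did not overlap as deposited, nor after scaling by total fragments or by the upper quartile. Most of the difference in the sum came from Lgals9 and Lgals1, the latter of which did not pass the test.

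Among the other galectin genes, Lgals2, Lgals7 and Lgalsl had rows. Lgalsl, which encodes a galectin-related protein that does not bind lactose, was at 4.06 to 4.67 FPKM over the 10 samples, between Lgals3 and Lgals3bp in level. Lgals2, a galectin of gut epithelium, was at 1.94, 2.46, 3.30, 1.91 and 1.46 FPKM in saline replicates 1 to 5 and at 1.08, 1.59, 1.80, 1.54 and 1.14 in StcE replicates 1, 2, 3, 5 and 6. Saline replicate 3 was the highest by some distance, and saline replicate 5 lay among the StcE samples. The log2 fold change of Lgals2 was -0.39, or -0.63 as the log2 ratio of the means with no pseudocount (limma adjusted p = 0.0902, exact permutation p = 0.0476). Lgals2 passed the threshold in 1 of 20 alternative settings, the fit without saline replicate 5 (limma adjusted p = 0.0384). With no filter on low FPKM its adjusted p was 0.251. The level of Lgals2 rested on 15 to 52 fragments per sample. The keratinocyte galectin Lgals7 reached at most 2 fragments in a sample. With Lgalsl at -0.05 (adjusted p = 0.363), 0 of the 2 tested genes of this list passed the threshold, beside 11.9% of all tested genes.

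For each tested member, the genes with the most similar profile over the 10 samples were found by the root mean square difference of centred log2(FPKM + 1). For Lgals9 they were Vps41, a subunit of the HOPS complex of endosome to lysosome traffic (difference 0.0247), and Tulp3, a regulator of ciliary traffic (0.0262). Vps41 fell with a log2 fold change of -0.14 (limma adjusted p = 0.00735), and Tulp3 with -0.12 (adjusted p = 0.0435), a call that Tulp3 kept in 2 of the 10 fits that left out a sample, those without saline replicate 4 or StcE replicate 2. For Lgals8 they were the splicing regulator Sfswap (0.0188) and Paip1, a binding partner of poly(A)-binding protein (0.0210), and for Lgals1 they were Srrm1 (0.0322) and Psmc5 (0.0347). The closest genes to Lgals3 were Colca2 (0.0398) and Mvb12a (0.0470), and those to Lgals3bp were Gm30025 (0.0429) and Lims2 (0.0716). All of these were picked from 11062 genes for their likeness. A gene picked for likeness to Lgals9 shares its fall, so the tests of Vps41 and Tulp3 add no support.

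The proteins that galectins bind were examined next. Of 23 tested genes for surface and matrix ligands, 4 were higher and 2 lower after StcE, beside 5.52% higher and 6.41% lower among all tested genes, and their median log2 fold change was 0.0094, where the median over all tested genes was -6.6e-04. The transferrin receptor Tfrc, a glycoprotein that Lgals3 binds, rose from 31.5 ± 1.05 to 37.7 ± 0.801 FPKM (SD, n = 5 each; log2 fold change 0.25, limma adjusted p = 1.7e-04). The adhesion molecule Alcam, a ligand of Lgals8 in endothelium, rose from 9.94 ± 0.466 to 11.7 ± 0.330 FPKM (0.22, adjusted p = 0.00183), and the hyaluronan receptor Cd44 rose from 46.0 ± 1.68 to 52.6 ± 1.30 FPKM (0.19, adjusted p = 0.00169). For these 3 genes every StcE sample was above every saline sample. Groups without overlap, in either direction, were found for 5 of the 23 ligand genes, beside 10.7% of all tested genes. The receptor of Lgals9, Havcr2, was low, at 0.832 to 1.21 FPKM with saline and 1.16 to 1.66 with StcE, and its call (log2 fold change 0.25, or 0.45 as the log2 ratio of the means with no pseudocount; adjusted p = 0.0383) was kept in 2 of the 10 fits that left out a sample, those without saline replicate 1 or StcE replicate 1.

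Of the integrin subunits in that list, Itga5, the alpha chain of the fibronectin receptor, fell from 113.4 ± 1.69 to 102.1 ± 3.84 FPKM (SD, n = 5 each; log2 fold change -0.15, limma adjusted p = 0.00442). Itga1, a collagen receptor chain, went from 1.22 ± 0.0373 to 1.01 ± 0.0476 FPKM (-0.14, or -0.27 with no pseudocount; adjusted p = 0.0499), and leaving out any 1 sample ended that call (adjusted p = 0.0614 to 0.109). The partner chain Itgb1, which binds Lgals1, Lgals3 and Lgals8, was at 250.3 ± 2.48 and 252.0 ± 4.18 FPKM (adjusted p = 0.793). The mucin gene Muc1, a ligand of Lgals3, was at 6 to 15 fragments per sample and was not tested.

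The enzymes that build galectin-binding sugars were taken next. Of 18 tested genes for N-glycan branching and N-acetyllactosamine synthesis, 1 was higher and 1 lower, with a median log2 fold change of -0.02. That count is near the 11.9% of all tested genes called in either direction and is not a result about these enzymes as a group. B4galt5, a galactosyltransferase that acts on glycolipids and glycans, rose from 41.8 ± 2.12 to 47.0 ± 1.497 FPKM (SD, n = 5 each; 0.17, limma adjusted p = 0.0118). Man2a2, a Golgi mannosidase, went from 3.77 ± 0.255 to 3.26 ± 0.208 FPKM (-0.16, adjusted p = 0.0440), and 8 of the 10 fits without a sample ended its call, all but those without saline replicate 2 or StcE replicate 6. The branching enzyme Mgat5, whose product is the preferred N-glycan of galectin lattices, was at 15.1 ± 0.645 and 15.2 ± 1.13 FPKM (log2 fold change 0.00996, adjusted p = 0.920).

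Of 9 tested genes for sialic acid and fucose capping, 1 was lower and 0 higher, near the 11.9% called among all tested genes, and the median log2 fold change was 0.0064. The lower gene was St6gal1, which adds the sialic acid that masks galactose from many galectins. It was at 7.22, 6.80, 6.39, 6.86 and 7.09 FPKM in saline replicates 1 to 5 and at 5.22, 5.29, 5.25, 5.77 and 5.31 FPKM in StcE replicates 1, 2, 3, 5 and 6. All StcE samples were below all saline samples, and the StcE samples other than replicate 5 were nearly equal. The mean of St6gal1 fell by 21.9%, from 6.87 ± 0.317 to 5.37 ± 0.226 FPKM (SD, n = 5 each; log2 fold change -0.31, standard error 0.0363, limma adjusted p = 3.5e-04). On the log2(FPKM + 1) scale this was a larger change than that of any of the 5 tested members. The fall was past the threshold in all 20 alternative settings.

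Inside the cell, Lgals3, Lgals8 and Lgals9 act with autophagy and repair proteins at damaged membranes. Of 17 tested genes of that machinery, 1 was higher and 2 lower, beside 5.52% higher and 6.41% lower among all tested genes, with a median log2 fold change of 0.0082. Trim16, a ubiquitin ligase that works with Lgals3, rose from 28.7 ± 1.34 to 31.7 ± 0.792 FPKM (SD, n = 5 each; 0.14, limma adjusted p = 0.0171). Calcoco1, a receptor for autophagy of the endoplasmic reticulum and Golgi, fell from 4.87 ± 0.225 to 4.25 ± 0.159 FPKM (-0.16, adjusted p = 0.0148). The autophagy receptor Nbr1 had a log2 fold change of -0.10 (adjusted p = 0.0265), a call that ended without saline replicate 1 or 4 or StcE replicate 1, 3 or 5. Calcoco2, the receptor that Lgals8 recruits to bacteria in human cells, was at 0 in every StcE sample and at no more than 3 fragments in a saline sample.

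Lgals9 and Lgals3bp are both interferon-inducible, so interferon-stimulated genes were set beside them. Of 22 tested genes, 2 were lower and 0 higher past the threshold, a count near the shares over all tested genes (6.41% lower, 11.9% in either direction). A log2 fold change below 0 was found for 20 of the 22, beside 50.4% of all tested genes. Their median was -0.16, beside -6.6e-04 over all tested genes. Saline replicate 2 was the highest sample for many genes of the list, such as Ifit1 (7.41 FPKM), Ifit3 (7.46), Usp18 (2.09) and Cxcl10 (2.98). For others another saline sample was highest, as for Isg15 (6.90 FPKM, replicate 3) and Ddx58 (17.0, replicate 1). Genes that move together are not independent, and neither the 20 of 22 nor the median was computed without saline replicate 2. With no pseudocount, the median log2 ratio of the group means was -0.22 for the list, beside -0.15 for Lgals9 and -0.25 for Lgals3bp. Gbp3, a guanylate-binding protein, was at 3.20, 3.48, 3.04, 2.84 and 3.47 FPKM in saline replicates 1 to 5 and at 2.21, 2.36, 2.63, 2.41 and 2.48 FPKM in StcE replicates 1, 2, 3, 5 and 6. These groups did not overlap, and Gbp3 fell with a log2 fold change of -0.30 (limma adjusted p = 0.00374). The RNA sensor Ddx58 had a log2 fold change of -0.16 (adjusted p = 0.0293), which lost its call without saline replicate 1, 2 or 4 or StcE replicate 1 or 3. The 20 tested genes that missed the threshold had adjusted p of 0.0511 or more.

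The number of interferon-stimulated genes past the threshold and lower depended on the method. With voom on the recovered fragments it was 8 of 22 (7.98% of all genes tested in that fit were lower), with robust variance moderation 5 (6.53%) and without a trend 4 (6.09%). It was 1 of 27 without a filter on low FPKM (1.51%), and 1 of 22 with the replicate number as a block (1.46%), without saline replicate 2 (5.14%) or without StcE replicate 1 (4.33%). Of the 27 genes on this list, tested or not, 22 had a promoter window. GAAANNGAAA was in 10 of those 22 (45.5%), compared with 3.46% of all 27025 genes of the table. The motif is the core of the element named for such genes, so that share describes the list and not StcE. Motif content was not set against the expression values in a test.

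**Figure D4:**
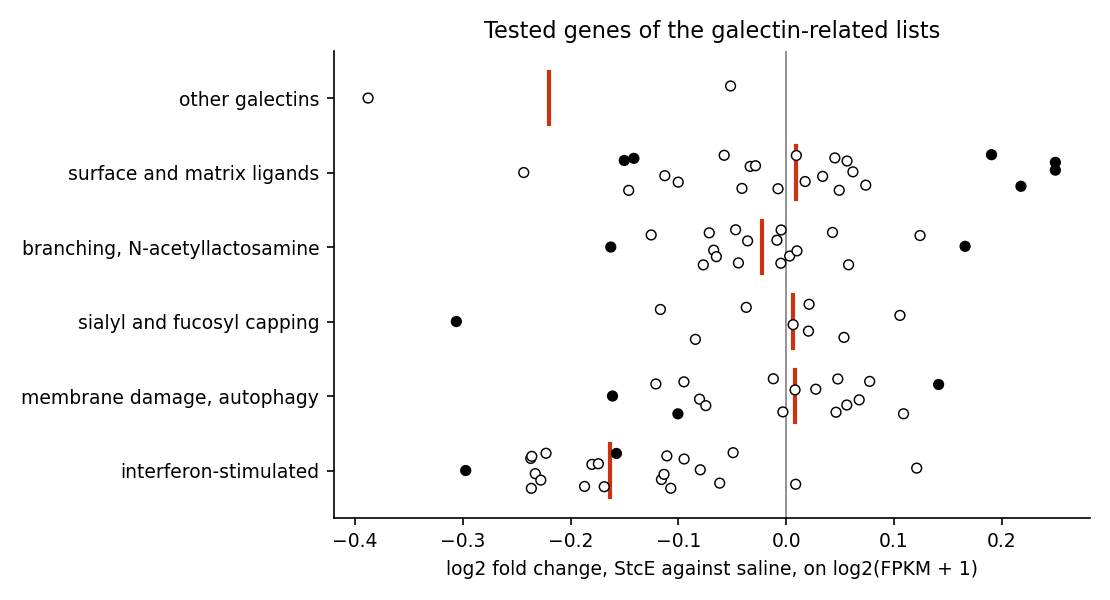
Log2 fold change of each tested gene of 6 lists, StcE against saline on log2(FPKM + 1), 1 point a gene. Filled points are past the adjusted threshold, open points are not, and red bars are list medians; the interferon-stimulated genes lie mostly left of 0 (20 of 22), while the medians of the ligand, capping and membrane damage lists are within 0.0094 of 0.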

How the data were processed

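The authors deposited FPKM per gene and sample for 5 saline and 5 StcE samples; HISAT2 2.0.5, featureCounts 1.5.0-p3, DESeq2 1.32.0 and the build mm10 are named in the submitters' processing notes. From these FPKM and GENCODE vM21 exon lengths, 96.6% of the values above 0 came out as whole fragments (within 0.05), and the deposited scale followed median-of-ratios size factors. The 11062 of 27024 rows whose mean FPKM reached 1 entered limma 3.58.1 (R 4.3.3) as log2(FPKM + 1), a pseudocount of 1 (eBayes with trend, condition as the sole term, Benjamini-Hochberg adjustment), and single genes also by exact two-sided permutation. The procedure was tested on simulated data. Replicates differed by more than sampling noise (chi-square per degree of freedom 3.05 to 8.42).

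Named are the 6 genes, list members past the threshold (at most the 4 largest changes of a list in each direction), the 2 genes most like each tested member and cell type markers. Lgals2, Lgals7, Lgalsl, Itgb1, Muc1, Mgat5 and Calcoco2, which are on the lists but not past the threshold, were added with their values in view. The members and lists were chosen with earlier results of these data known. BLAST 2.17.0 (at least 95% identity over at least 150 bases) found a match to another gene for Lgals8 alone, over 7.57% of a transcript. That gene is Heatr1, whose exons also lie on the opposite strand of Lgals8 exons. Whether the match is this shared stretch or a separate copy was not tested.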

Additional observations from a re-analysis of the deposited data

How the results depend on the processing

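Each gene was fitted under 20 alternative settings. Lgals1, Lgals8 and Lgals3bp kept their direction and stayed short of the threshold in all 20. Lgals9 stayed lower (log2 fold change -0.15 to -0.13) and past the threshold in 19, with adjusted p up to 0.0105 when 1 sample was left out. The exception was the fit with a replicate block, for which 8 samples share the numbers 1, 2, 3 and 5 (-0.15, limma adjusted p = 0.0542). Same-numbered samples did not deviate together over all tested genes (correlations -0.097 to 0.054), and the numbers were not treated as pairs. The labels do not say what the numbers mean, and such correlations cannot exclude a shared origin that moves few genes. With that block, 349 genes were past the threshold, against 885 for the same 8 samples without it. The log2 fold change of Lgals3 ranged from -0.069 to 0.0025 when 1 sample was left out. That of Lgals3bp ranged from -0.19 to -0.10 when 1 sample was left out, and from -0.28 to -0.10 over all 20 settings. Lgals4 kept its direction but not its p under 0.05 with a minimum mean FPKM of 0.1 or no filter (0.11, limma adjusted p = 0.188 and 0.174), with the 8 samples (0.11, exact permutation p = 0.0571), and with labels swapped within the replicate numbers (0.11, p = 0.125, the smallest that 16 arrangements allow). It has no value of its own under voom or other eBayes settings. The test over all genes called 801 genes without a filter, where more genes are tested, and 793 to 1255 when 1 sample was left out, lowest without StcE replicate 3, with 838 without saline replicate 1. The settings for single genes of the lists and markers, the scalings of the summed galectins, the list medians with no pseudocount and the swap within replicate numbers were added after the data were seen: Tfrc, Alcam, Cd44, St6gal1 and Gbp3 were past the threshold in all 20. The replicate block ended the call of Itga5, B4galt5, Trim16, Calcoco1, Vps41, Tek, Flt1 and Tie1 and no other setting did. The counts of lower genes moved by over 1.5 times in 11 of 20 settings for the ligands and in 14 for the N-acetyllactosamine enzymes, in 7 for the membrane damage genes and in 1 for the capping genes, where 1 or 2 genes make the count; higher genes did so in 3 for membrane damage and in 1 each for the N-acetyllactosamine enzymes and the interferon-stimulated genes. In 12 groups of 5 samples examined for a sample standing apart, 0 had one, where chance gives about 0.6. Depth limits Lgals4 and Lgals3bp most, and a p that misses the threshold does not show that their levels were equal.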
